A study of Mus musculus with 4 samples.

Results

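The enzymes that carry carbon from citrate to long-chain acyl-CoA, without the desaturases, were followed at the level of mRNA in mouse induced regulatory T (iTreg) cells cultured with or without added iron. They are 10 genes, Acly, Acss2, Me1, Acaca, Acacb, Fasn, Elovl1, Elovl5, Elovl6 and Acsl3. These were chosen by symbol, with earlier results of these data known. Each matched 1 Ensembl ID among the 47729 gene rows of the count table, and all 10 were among the 13732 genes with enough reads to be tested. The cells were CD4 T cells of C57BL/6 mice, from the spleen per the labels, while the culture methods describe naive CD4 T cells from spleen and lymph nodes, and the study's general age range is 6 to 8 weeks. All of them were activated with anti-CD3 and anti-CD28 and received TGF-β, IL-2 and antibodies to IL-4 and IFN-γ, the conditions that induce Foxp3. They were cultured for 4 days with 50 µM ferrous sulfate (the FeSO4 group) or with PBS (the Mock group), and each group had 2 bulk RNA-seq libraries. A sort for Foxp3 after the culture is not given in the sources used here, so the libraries hold whatever cells the culture held. Bulk libraries cannot tell fewer cells that use a gene from less RNA per cell.

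Cytosolic fatty acid synthesis starts from citrate that leaves the mitochondrion. ATP-citrate lyase (Acly) splits it into acetyl-CoA and oxaloacetate, acetyl-CoA carboxylase adds a carboxyl group to make malonyl-CoA, and fatty acid synthase (Fasn) condenses these units into palmitate with NADPH as the reductant. Elongases in the endoplasmic reticulum lengthen the chain, and acyl-CoA synthetases activate free fatty acids by linking them to CoA. Activated T cells are known to use this pathway for membrane growth, and many of its genes are targets of the sterol regulatory element binding proteins (SREBPs).

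Levels are given as CPM, the read count relative to the TMM-scaled library size. Differences are log2 fold changes of FeSO4 over Mock with their SE, and a gene was called when its Benjamini-Hochberg adjusted p in edgeR's quasi-likelihood test was under 0.05. Reads in gene rows numbered 35183187 to 40859178 a library, and 3 reads, the upper limit for a gene with no reads, equalled 0.0717 to 0.0875 CPM. These limits cover counting error only. Libraries of the same group differed by more than sampling noise, with a chi-square of 8.85 per degree of freedom in Mock and 7.25 in FeSO4, and the methods describe 2 pairs of samples from 2 independent experiments without saying whether a replicate number marks an experiment. With 2 libraries a group, an SD rests on 1 difference.

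Fatty acid synthesis genes were mostly higher with FeSO4, by small amounts. Of the 10 genes, 6 rose (Acsl3, Acaca, Fasn, Elovl1, Acly and Elovl5), 1 fell (Acacb), and 3 were not called (Acss2, Me1 and Elovl6). Among all genes tested, 10.9% rose and 9.17% fell. Because the 10 genes were chosen with earlier results of these data known, comparisons with all genes only describe them. The median log2 fold change was 0.26 over the 10 enzymes and -0.00052 over all genes tested. Both FeSO4 libraries lay above both Mock libraries for 7 of the 10 genes and below them for 2, while the corresponding shares of all tested genes were 30.1% and 29.4%. The study's own threshold was an unadjusted p under 0.05 in DESeq2 and a log2 change of at least 0.5 either way. Here and below it was applied to edgeR's unadjusted p, so its counts are not those of the study. By it, only Acsl3 was higher and only Acacb was lower. Of all genes it marked 4.67% as higher and 5.73% as lower. The count of 6 fell to 5 without Mock replicate 1, to 4 without Mock replicate 2, to 3 without FeSO4 replicate 1 and to 5 without FeSO4 replicate 2. Without Mock replicate 1, the count also holds Me1, which was not among the 6. Acsl3, Acaca, Fasn and Acacb were called in the same direction in each of these fits.

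**Figure D1:**
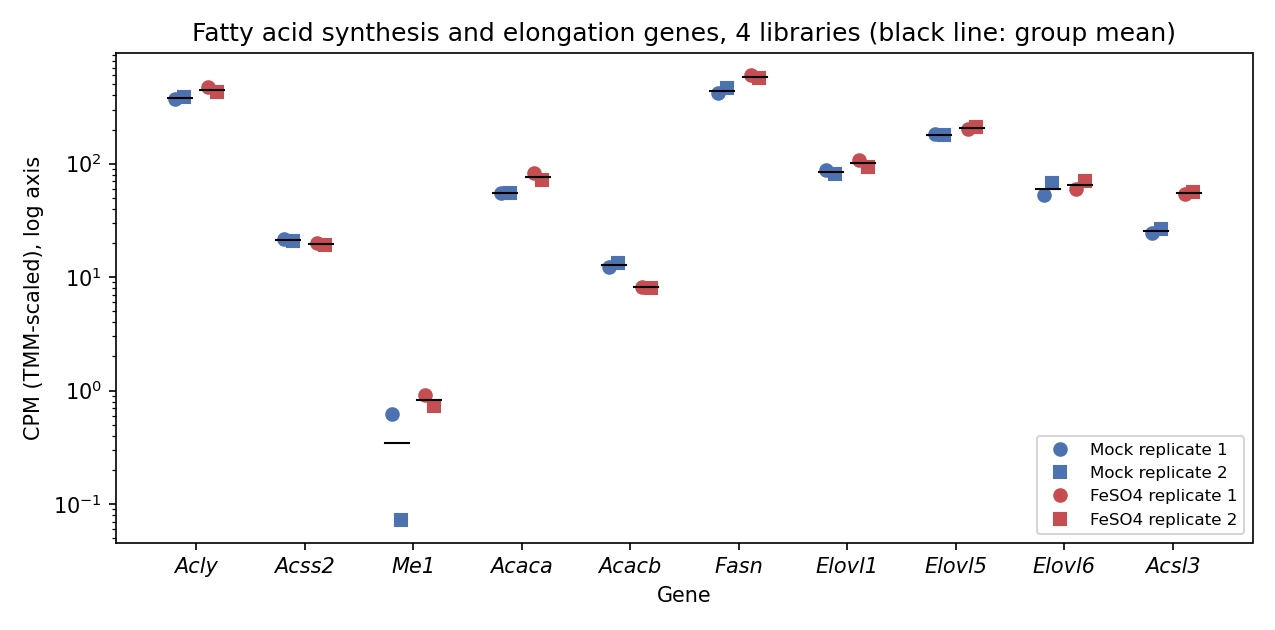
CPM (log axis) of the 10 enzymes in each library, with Mock in blue, FeSO4 in red, circles for replicate 1, squares for replicate 2 and a black line at each group mean. Acsl3 went from 25.6 to 55.1 CPM on average, Acacb from 12.9 to 8.11 CPM, and Me1 lay below 1 CPM in all 4 libraries.

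The pathway's levels spanned a wide range. Per length (CPM per kilobase of the longest coding transcript in GENCODE M1, mean of the 4 libraries), Acly was highest at 93.5, followed by Elovl5 at 69.5, Fasn at 53.5 and Elovl1 at 51.1. Acsl3 at 12.6 and Elovl6 at 10.5 formed a middle range, Acss2 at 6.95 and Acaca at 6.94 were next, and Acacb at 1.19 and Me1 at 0.176 were last. Within the Mock group, Fasn at 46.0 ± 3.29 and Elovl1 at 46.3 ± 2.52 CPM per kilobase were within each other's spread (SD, n = 2 each). In FeSO4, Fasn was at 60.9 ± 2.64 and Elovl1 at 56.0 ± 5.49 (SD, n = 2 each), a gap within the SD of Elovl1 but beyond that of Fasn. Acsl3 was below Elovl6 in Mock, at 8.03 ± 0.446 against 10.1 ± 1.65, and above it in FeSO4, at 17.3 ± 0.571 against 10.9 ± 1.31 (SD, n = 2 each). The 10 genes together held 1224 and 1297 CPM in the Mock libraries and 1607 and 1523 CPM in the FeSO4 libraries, so the groups did not overlap in this sum.

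The sequence upstream of the start sites is shown for 4 genes whose changes differ: Acsl3 with the largest called rise, Fasn as the central enzyme, Elovl5 with the smallest called rise, and Acss2 that was not called. The sequences are the 250 bases before a RefSeq start site (GRCm38.p6), written 5′ to 3′ on the gene's strand, and capitals mark CCAAT boxes (CCAAT, or ATTGG on the other strand) and E-boxes (CACGTG). The windows are chr1:78657575-78657824 (plus strand) for Acsl3, chr11:120824548-120824797 (minus strand) for Fasn, chr9:77917115-77917364 (plus strand) for Elovl5 and chr2:155517793-155518042 (plus strand) for Acss2.
Acsl3: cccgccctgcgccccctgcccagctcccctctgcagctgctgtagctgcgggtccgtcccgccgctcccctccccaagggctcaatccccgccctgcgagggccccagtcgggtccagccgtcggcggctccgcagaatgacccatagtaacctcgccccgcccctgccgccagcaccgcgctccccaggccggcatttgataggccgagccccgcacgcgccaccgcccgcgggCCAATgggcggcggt
Fasn: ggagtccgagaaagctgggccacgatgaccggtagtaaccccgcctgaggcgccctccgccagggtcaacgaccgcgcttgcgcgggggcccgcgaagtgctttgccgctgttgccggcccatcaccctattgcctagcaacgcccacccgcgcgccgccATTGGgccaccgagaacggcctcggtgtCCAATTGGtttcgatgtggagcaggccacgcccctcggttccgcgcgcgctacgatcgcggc
Elovl5: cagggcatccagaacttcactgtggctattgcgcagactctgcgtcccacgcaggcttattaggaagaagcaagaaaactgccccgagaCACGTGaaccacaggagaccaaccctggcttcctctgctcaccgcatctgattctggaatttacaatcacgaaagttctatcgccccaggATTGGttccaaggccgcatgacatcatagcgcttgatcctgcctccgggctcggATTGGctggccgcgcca
Acss2: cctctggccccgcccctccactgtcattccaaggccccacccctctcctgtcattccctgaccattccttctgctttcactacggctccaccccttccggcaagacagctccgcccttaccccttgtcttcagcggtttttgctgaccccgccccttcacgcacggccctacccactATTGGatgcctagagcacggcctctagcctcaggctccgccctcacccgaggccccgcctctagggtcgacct
The Fasn window starts inside the gene's RefSeq span, so it does not precede the outermost start. It holds 3 CCAAT boxes, which begin 90, 62 and 59 bases before the start, and the last 2 of them overlap in 1 run of capitals. Elovl5 holds 2 CCAAT boxes and the only E-box among the 10 genes, 161 bases before its start. Acsl3 and Acss2 hold 1 CCAAT box each, 15 and 73 bases before the start.

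All 10 genes had at least 1 such window, 12 windows in all, and each motif was searched on both strands. The windows of Acaca, Acacb, Fasn and Elovl1 and 1 of the 2 windows of Me1 lie inside the gene's RefSeq span, so the outermost promoters of Acaca, Acacb, Fasn and Elovl1 were not searched. The sterol regulatory element, searched as TCACNCCAC, is the site type that SREBPs are known to bind, and it was found in 0 of the 12 windows and in 1.05% of all 32851 promoter windows of the same length. The E-box CACGTG was in 6.02% of all windows. A CCAAT box was present in windows of 7 genes (Acacb, Acsl3, Acss2, Elovl1, Elovl5, Fasn and Me1), which is 7 of the 12 windows, and in 33.8% of all windows. GC boxes (GGGCGG, or CCGCCC on the other strand) were present in windows of 5 genes (Acly, Acsl3, Acss2, Elovl1 and Me1), which is 6 of the 12 windows, and in 32.7% of all windows. Genes that rose and genes that were not called are found in both lists. A match describes letters only, and an absent match says only that these letters are not in this window.

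Acly, whose product supplies cytosolic acetyl-CoA from citrate, was at 369.7 and 390.2 CPM in Mock replicates 1 and 2 and at 470.3 and 425 CPM in FeSO4 replicates 1 and 2. Both FeSO4 libraries were above both Mock libraries, and FeSO4 replicate 1 stood highest. The mean went from 379.9 ± 14.5 to 448 ± 31.9 CPM (SD, n = 2 each). The log2 fold change was 0.24 ± 0.065 (SE, edgeR adjusted p = 0.0165), so Acly rose. The call was lost without Mock replicate 1 (0.19, adjusted p = 0.0783) and without FeSO4 replicate 1 (0.17, adjusted p = 0.232). It was also lost with library size only (0.17, adjusted p = 0.0678) and without the filter on low counts (0.24, adjusted p = 0.114). Acly (ENSMUSG00000020917) lies at chr11:100476352-100528000 on the minus strand (GRCm38).

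Acss2 makes acetyl-CoA from acetate in the cytosol and nucleus. It was at 21.5 and 20.7 CPM in the Mock libraries and at 19.9 and 19.3 CPM in FeSO4. The FeSO4 libraries were the lower pair without overlap, but the gap was small, and the log2 fold change of -0.10 ± 0.11 was not called (SE, edgeR adjusted p = 0.554). Acss2 (ENSMUSG00000027605, chr2:155518043-155562743, plus strand) shares 761 exonic bases with 4930471I20Rik, Ggt7 and Gss, whose reads could be lost as ambiguous. Per length, Acly held 92.3 ± 0.477% of the sum of these acetyl-CoA sources in Mock and 93.8 ± 0.291% in FeSO4, and Acss2 the rest (SD, n = 2 each).

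Me1, the cytosolic malic enzyme that yields NADPH, was barely present. It had 25 and 3 reads in Mock and 31 and 27 reads in FeSO4, or 0.616 and 0.0717 CPM against 0.904 and 0.729 CPM. Mock replicate 2 was the low library, at the limit set by 3 reads. The log2 fold change was 1.25 ± 0.64 (SE) and was not called (edgeR adjusted p = 0.192). It rested on the Mock libraries, at 3.44 without Mock replicate 1 (adjusted p = 0.0227) and 0.40 without Mock replicate 2 (adjusted p = 0.715). Me1 (ENSMUSG00000032418) lies at chr9:86581363-86695914 on the minus strand, and its exons share 30 bases with those of A330041J22Rik.

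The acetyl-CoA carboxylases moved in opposite directions. Acaca encodes ACC1, the cytosolic carboxylase that feeds fatty acid synthesis, and it was at 54.6 and 55.6 CPM in the Mock libraries and at 82.1 and 71.7 CPM in FeSO4. The Mock libraries were close together, and both FeSO4 libraries lay well above them. Acaca rose from 55.1 ± 0.710 to 76.9 ± 7.30 CPM (SD, n = 2 each), by 0.48 ± 0.082 on the log2 scale (SE, edgeR adjusted p = 0.000607). By replicate number, the log2 ratios were 0.59 and 0.37. Acaca (ENSMUSG00000020532) spans chr11:84129635-84401651 on the plus strand, and its exons share 16 bases with those of Gm17722 in GENCODE M1.

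Acacb encodes ACC2, the carboxylase at the outer mitochondrial membrane whose malonyl-CoA is known to inhibit Cpt1. It was at 12.4 and 13.3 CPM in the Mock libraries and at 8.23 and 7.99 CPM in FeSO4, with no overlap. The mean fell from 12.9 ± 0.669 CPM to 8.11 ± 0.166 CPM (SD, n = 2 each), with a log2 fold change of -0.67 ± 0.15 (SE, edgeR adjusted p = 0.0047). It lies in the lowest 7.6% of all tested genes by log2 fold change. Acacb (ENSMUSG00000042010) spans chr5:114146321-114250761 on the plus strand. Per length, Acaca made up 80.3% and 79.4% of the carboxylase reads in Mock and 90.2% and 89.2% in FeSO4. The mean share of Acacb went from 20.2 ± 0.630% to 10.3 ± 0.687% (SD, n = 2 each), with no test made of shares.

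**Figure D2:**
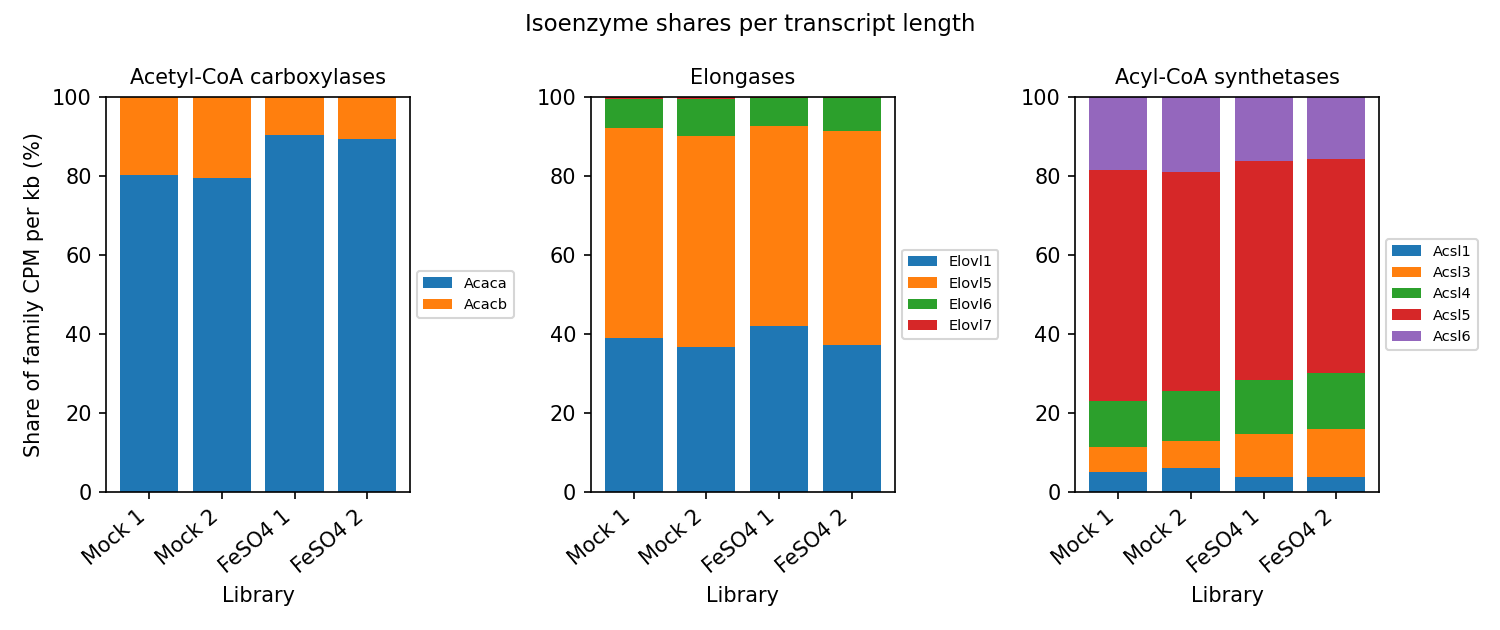
Stacked bars of each library's share, in percent of CPM per kilobase, of the acetyl-CoA carboxylases, the elongases and the long-chain acyl-CoA synthetases. Acaca was near 80% in both Mock libraries and near 90% in both FeSO4 libraries, and Acsl3 went from 6.61% to 11.4% on average.

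Fasn, the multifunctional synthase that makes palmitate, had the highest CPM of the 10 genes. It was at 419 and 464 CPM in the Mock libraries and at 602 and 566 CPM in FeSO4. The groups did not overlap, and the gap between them was wider than the gap within either. Fasn rose from 441 ± 31.5 to 584 ± 25.3 CPM (SD, n = 2 each), by 0.40 ± 0.065 on the log2 scale (SE, edgeR adjusted p = 0.000365). Leaving out each library in turn gave 0.33 to 0.48. Fasn (ENSMUSG00000025153) lies at chr11:120805958-120825166 on the minus strand, and its upstream window with the overlapping CCAAT boxes is shown above.

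The elongases catalyse the first step of each elongation cycle and differ in the chains they prefer. Elovl1, which acts on saturated and monounsaturated very long chains, was at 87.1 and 80.6 CPM in the Mock libraries and at 108 and 94.3 CPM in FeSO4. Both FeSO4 libraries were higher, with FeSO4 replicate 1 highest. Elovl1 rose by 0.27 ± 0.080 on the log2 scale (SE, edgeR adjusted p = 0.0228), a call that was lost without Mock replicate 2 (0.22, adjusted p = 0.117) and without FeSO4 replicate 1 (0.17, adjusted p = 0.302). With library size only the adjusted p was 0.0711, and without the filter on low counts it was 0.147. Its exons (ENSMUSG00000006390, chr4:118426874-118432953, plus strand) share 53 bases with those of Cdc20.

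Elovl5, which lengthens polyunsaturated chains, was at 182 and 179 CPM in the Mock libraries and at 202 and 210.5 CPM in FeSO4. The groups did not overlap. Elovl5 rose by 0.19 ± 0.063 on the log2 scale (SE, edgeR adjusted p = 0.0407), the smallest called change of the 10 genes, and leaving out any 1 library ended the call. The adjusted p was 0.077 without Mock replicate 1, 0.101 without Mock replicate 2, 0.0982 without FeSO4 replicate 1 and 0.244 without FeSO4 replicate 2. The call was also lost with the upper quartile (0.0653), with library size only (0.167) and without the filter on low counts (0.113). Elovl5 (ENSMUSG00000032349) spans chr9:77917365-77984519 on the plus strand.

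Elovl6, which extends palmitate to stearate, was at 53.0 and 66.9 CPM in the Mock libraries and at 59.2 and 70.2 CPM in FeSO4. Replicate 2 was the higher library in both groups, and the groups overlapped. The log2 fold change of 0.11 ± 0.10 was not called (SE, edgeR adjusted p = 0.498), and its sign turned without Mock replicate 1 (-0.054) and without FeSO4 replicate 2 (-0.016). Elovl6 (ENSMUSG00000041220) spans chr3:129532386-129638495 on the plus strand. Shares of Elovl1, Elovl5 and Elovl6 within the elongase family moved by less than the larger SD of their groups. Elovl5 held 53.2 ± 0.118% of the family's reads per length in Mock and 52.4 ± 2.30% in FeSO4, and Elovl1 held 37.9 ± 1.62% and 39.5 ± 3.31% (SD, n = 2 each). Elovl6 made up 8.26 ± 1.45% and 7.69 ± 1.03%, and Elovl7 made up 0.510 ± 0.0386% and 0.322 ± 0.0388% (SD, n = 2 each). The log2 fold change of Elovl7, -0.45 ± 0.27, was not called (SE, edgeR adjusted p = 0.262). Elovl3 had 0 reads in all 4 libraries.

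Acsl3, an acyl-CoA synthetase of the endoplasmic reticulum and lipid droplets, changed most among the called genes. It was at 24.6 and 26.6 CPM in the Mock libraries and at 53.8 and 56.4 CPM in FeSO4. Libraries of the same group were close together, and the FeSO4 pair lay far above the Mock pair. Acsl3 rose 2.15-fold, from 25.6 ± 1.42 to 55.1 ± 1.82 CPM (SD, n = 2 each), or by 1.10 ± 0.090 on the log2 scale (SE, edgeR adjusted p = 3.17e-07). By p it ranked 30 among the 13732 genes tested. The ratios by replicate number were 1.13 and 1.08 on the log2 scale. Acsl3 (ENSMUSG00000032883) spans chr1:78657825-78707743 on the plus strand, and its exons share 206 bases with those of Utp14b.

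Within its family, Acsl3 took a larger share in FeSO4. Per length it held 6.61 ± 0.163% of the reads of Acsl1, Acsl3, Acsl4, Acsl5 and Acsl6 in Mock and 11.4 ± 0.757% in FeSO4 (SD, n = 2 each). Acsl5 was the most abundant of the family in both groups, at 56.9 ± 2.16% and 54.8 ± 1.05%. Acsl4 also took a larger share, at 12.1 ± 0.741% and 13.9 ± 0.460%. Acsl6 held 18.8 ± 0.470% and 16.0 ± 0.239%, and Acsl1 held 5.58 ± 0.789% and 3.86 ± 0.0760% (SD, n = 2 each). Neither Acsl6 (log2 fold change 0.091) nor Acsl1 (-0.21) was called. Over all genes tested, 10.9% were higher and 9.17% lower. Of 7 other activating enzymes tested, 2 were higher (Acsl4 by 0.52 and Acsl5 by 0.27 on the log2 scale) and 1 lower (Acsbg1, -0.24). Without FeSO4 replicate 1, 1 was higher and 0 lower in edgeR, with Acsl5 at an adjusted p of 0.101 and Acsbg1 at 0.146, and without Mock replicate 1, 2 were lower.

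**Figure D3:**
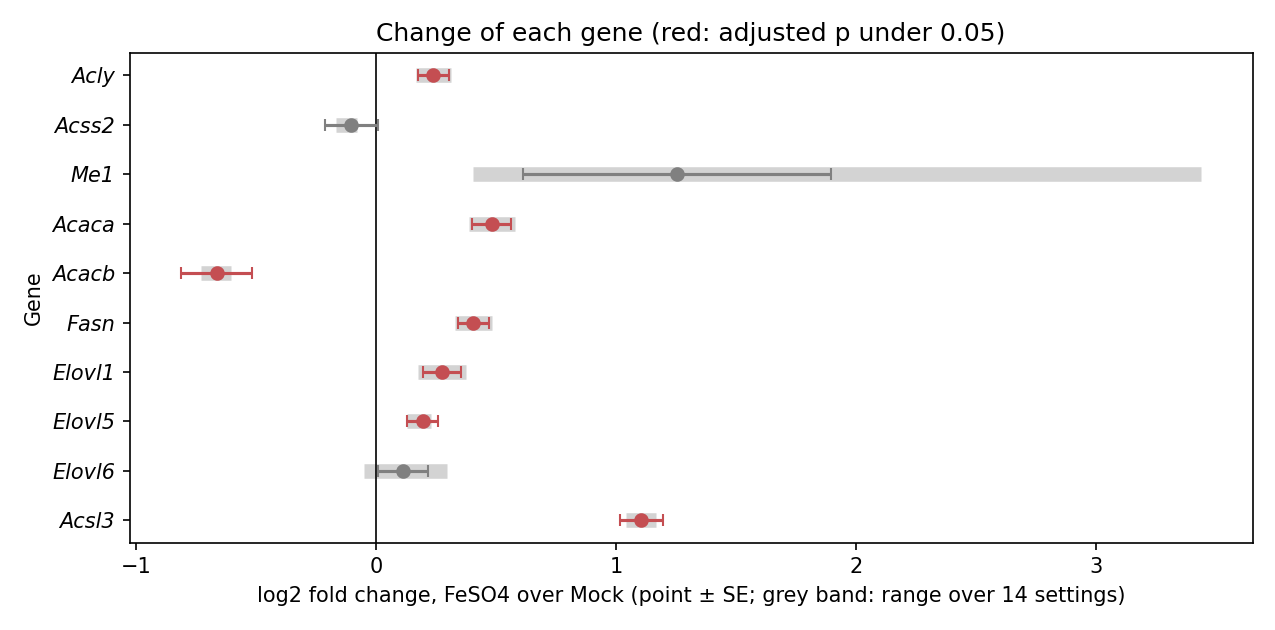
Log2 fold change of FeSO4 over Mock for the 10 enzymes (points ± SE, red where the adjusted p was under 0.05), with a grey band for the range over the 14 fits made. Acsl3 at 1.10 and Acacb at -0.67 stood apart from the other called genes, which lay between 0.19 and 0.48, and the band of Me1 reached from 0.40 to 3.44.

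The genes whose profile over the 4 libraries was closest to that of the 3 enzymes of smallest p were found by Euclidean distance on log2 CPM centred per gene, among 8521 genes of at least 10 CPM. For Acsl3 these were Sc4mol (distance 0.0815), Cldn25 (0.0995) and Cyp51 (0.126). Sc4mol and Cyp51 encode enzymes of sterol synthesis. For Fasn they were Sco1 (0.0138), Utp11l (0.0379) and Npas2 (0.0400), and for Acaca they were Psat1 (0.00733), Cdkn3 (0.0377) and Sap30 (0.0408). With only 4 libraries, such a ranking describes these samples.

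The enzymes act beside others, which were described by the same fit. Genes that supply acetyl-CoA and NADPH were mostly higher, with 6 of 9 tested higher and 0 lower in edgeR (median log2 fold change 0.29). Over all genes tested, 10.9% were higher and 9.17% lower. At an unadjusted p under 0.05 in edgeR, 1 of the 9 was lower. DESeq2 and limma-voom also called 6 higher and 0 lower, but only 3 were higher without FeSO4 replicate 1, and 1 was lower without FeSO4 replicate 2. The called genes include Slc25a1, the mitochondrial citrate carrier (0.51), Aacs, which activates acetoacetate (0.76), and the NADPH sources Idh1 (0.64), Pgd (0.36) and G6pdx (0.29). Under the study's threshold, 3 genes of this list were higher and 0 lower. The calls of Pgd and G6pdx were lost without FeSO4 replicate 1, at log2 fold changes of 0.22 and 0.24. That of G6pdx was also lost without Mock replicate 2, at 0.27. The remaining steps of the elongation cycle and other elongases had 7 tested genes. Of these, 3 were higher and 0 lower in edgeR, DESeq2 and limma-voom, beside 10.9% and 9.17% of all genes tested in edgeR. At an unadjusted p under 0.05 in edgeR, 4 were higher and 0 lower, and under the study's threshold 1 and 0. The 3 called genes were Hsd17b12 (0.44), Hacd2 (0.50) and Tecr (0.36), which encode a reductase, a dehydratase and a reductase of the cycle. The call of Hacd2 was lost without Mock replicate 2 (adjusted p = 0.0595), and 1 gene of the list was lower without Mock replicate 1.

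The desaturases, which put double bonds into the chains that Fasn and the elongases make, are listed beside them. Of 6 tested, 4 were higher and 0 lower in edgeR (also at an unadjusted p under 0.05), DESeq2 and limma-voom. In edgeR, 10.9% of all genes tested were higher and 9.17% lower. The median log2 fold change of the 6 was 1.43, against 0.26 for the 10 enzymes. Fads2 had 10.1 and 14 CPM in the Mock libraries and 74.9 and 76.7 CPM in FeSO4, a log2 fold change of 2.66. Scd1 (1.86), Scd2 (1.73) and Fads1 (0.67) were also higher, while Scd4 (0.36) and Fads3 (1.12) were not called. Scd4 and Fads3 lay below 1 CPM in every library, and they enter the median of 1.43. The study itself labelled Scd1, Scd2 and Fads2 in its plot of these libraries, so their direction is not independent evidence. Reads that aligned to more than 1 place were not assigned to genes, which can lower the counts of near-identical genes such as Scd1 and Scd2.

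Of 18 tested genes of fatty acid oxidation, the opposing pathway, 5 were lower and 2 higher in edgeR (median log2 fold change -0.10), beside 9.17% and 10.9% of all genes tested. Under the study's threshold 3 were lower and 0 higher in edgeR, and with the upper quartile or library size only, 1 was higher. Without the filter on low counts, 4 were lower and 0 higher. Cpt1a, the gate of mitochondrial fatty acid import, fell by 0.92 on the log2 scale, and Slc25a20, the acylcarnitine carrier, fell by 0.69. Acaa2 and Acadvl fell by 0.50 each. Eci1 was higher by 0.41, and 11 genes were not called. The lower calls were not all kept without Mock replicate 2, FeSO4 replicate 1 or FeSO4 replicate 2. The higher count was 1 without Mock replicate 1, Mock replicate 2 or FeSO4 replicate 1 and 0 without FeSO4 replicate 2, and the call of Eci1 was lost without Mock replicate 1 (adjusted p = 0.0808) and without FeSO4 replicate 2 (adjusted p = 0.0516).

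Among regulators of lipogenesis, 4 of 16 tested were higher and 2 lower (median log2 fold change 0.06). The shares of all genes tested were 10.9% higher and 9.17% lower. Srebf1, which encodes SREBP-1, was higher by 0.82, Srebf2 by 0.36, Insig1 by 0.97, and Mid1ip1, whose product is known to promote ACC polymerization, by 1.0. Hlcs, the ligase that attaches biotin to the carboxylases, fell by 0.54 on the log2 scale, and the other lower gene was Scap, the SREBP escort (-0.30). Without FeSO4 replicate 2, 1 regulator was lower. The study also labelled Srebf1 in its own plot.

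**Figure D4:**
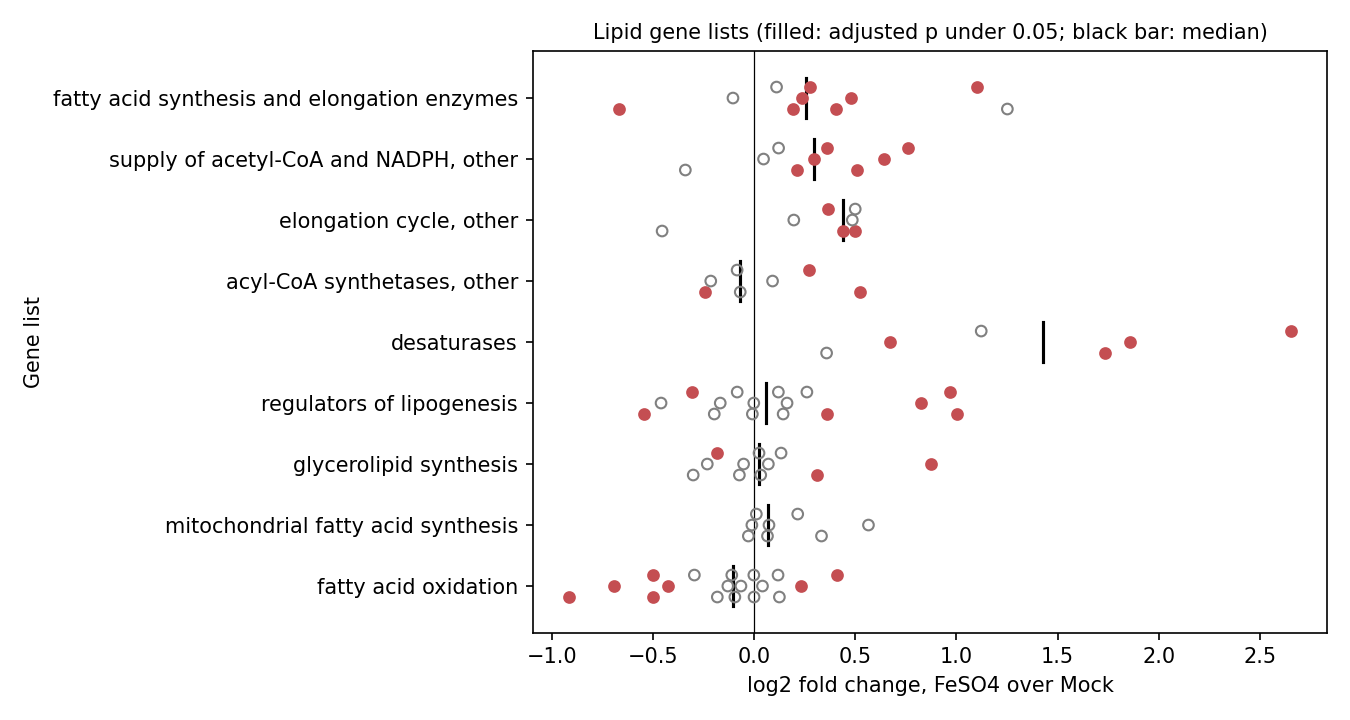
Log2 fold change of FeSO4 over Mock for each tested gene of 9 lipid gene lists (filled red points: adjusted p under 0.05; open points: not called; black bar: median of the list). The median was 0.26 for the synthesis and elongation enzymes, 1.43 for the desaturases and -0.10 for fatty acid oxidation.

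T cell markers were abundant in all 4 libraries. The 6 markers of CD4 T cells and Treg cells (Cd3d, Cd3e, Cd4, Foxp3, Il2ra and Ctla4) summed to 3366 and 3621 CPM in the Mock libraries and 3377 and 3614 CPM in FeSO4. Within them, Foxp3 fell by 0.59 and Cd3d was higher by 0.38 on the log2 scale. The 5 myeloid markers summed to 4.56 and 0.860 CPM in the Mock libraries and to 0.379 and 0.810 CPM in FeSO4, with Lyz2 at 164 and 8 reads in Mock and 0 in both FeSO4 libraries. Adgre1 had 8 and 28 reads in Mock and 12 and 29 in FeSO4 and was the largest part of the FeSO4 sums, Itgam had at most 2 reads in a library, and Cd14 and Csf1r were at 0 in 3 libraries. Both NK cell markers were at 0 in all libraries, and the 2 CD8 markers summed to 9.03 to 9.80 CPM in the Mock libraries and 9.95 to 11 CPM in FeSO4. Of the 2 erythroid markers, Hba-a1 was higher in FeSO4 by 0.66 on the log2 scale, while Hbb-b1 was at 0 in 3 libraries, and the sum was 19.6 to 24.8 CPM in the Mock libraries and 32.5 to 37.5 CPM in FeSO4. The part of these differences in the changes of the 10 enzymes was not tested.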

How the data were processed

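The authors deposited raw, unnormalized read counts, 1 row per Ensembl gene and 1 column per library. The labels' processing notes list Trim Galore 0.6.7, STAR 2.7.9a, featureCounts and build mm10, while the methods name mm9. The strand setting and annotation were not given in the sources used here. Closing rows of unassigned reads entered neither library sizes nor tests. They held reads without a feature (4.36 to 6.03%), ambiguous reads (3.78 to 3.91%), reads with more than 1 alignment (4.27 to 4.62%), unaligned reads (1.8 to 2.31%) and low alignment quality (0.802 to 0.988%). Of the 47729 IDs, 32799 had a symbol in GENCODE M1.

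Counts were analysed in R 4.3.3 with edgeR 4.0.16 (filterByExpr, TMM, quasi-likelihood F test without a block, Benjamini-Hochberg adjustment over 13732 genes). The common biological coefficient of variation was 8.24%. Alternatives were other scalings and filters, DESeq2 1.42.0, voom in limma 3.58.1, a replicate block, each library left out, the study's threshold and, chosen after seeing the data, edgeR's older quasi-likelihood fit. The fit was also run on simulated data, with no outcome reported or relied on here. The 10 genes and all lists were chosen with earlier results of these data known. Named genes were the 10 enzymes, up to 5 called genes of smallest p per list and all tested desaturases, plus 3 nearest profiles for each of the 3 enzymes of smallest p. Markers of cell types were also listed, 1 list of which is not reported here, and Scap, Acsl6, Acsl1, Elovl3 and Elovl7 were added after their values were seen. Positions and upstream sequences are from RefSeq (GRCm38.p6).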

Additional observations from a re-analysis of the deposited data

How the results depend on the processing

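The count of enzymes that rose was 6, and 3 with library size only, 3 when every gene with at least 1 count was tested, and 1 under the study's threshold. Leaving out 1 library gave 3 to 5. The count that fell was 1 in every fit. Over 129 values of the 10 enzymes in the 13 alternative fits, 111 kept their direction and side of the threshold, 15 lost the call, 1 gained it (Me1 without Mock replicate 1) and 2 turned sign. Calls were lost by Acly, Elovl1 and Elovl5 alone. Acss2, Me1 and Elovl6 were not called in the main fit, so they had no call to lose. Elovl6 was at -0.054 without Mock replicate 1 and -0.016 without FeSO4 replicate 2, within a range of -0.054 to 0.29 over the libraries left out, and Scd4 was at -0.26 without Mock replicate 1 and 1.49 without Mock replicate 2. The cause was not tested. Leaving out a library leaves its group with 1, which is assumed to vary like the other group. Testing all 22164 genes changed more than the adjustment, since the SE of Elovl5 was 0.0528 there against 0.063. Over 389 values of the 30 other named genes, 363 kept direction and call. Without the filter on low counts, higher calls went from 6 to 3 among supply genes and from 2 to 1 among the other synthetases. They went from 2 to 0 in oxidation and from 2 to 1 in glycerolipid synthesis. In the same fit, lower calls went from 5 to 4 in oxidation and from 2 to 0 among regulators. They went from 1 to 0 among the other synthetases and in glycerolipid synthesis. Me1 had no value with at least 10 counts in every library. Over all genes tested, 1492 rose and 1259 fell, against 520 and 302 without the filter on low counts, 986 and 1809 with library size only, 895 and 710 without FeSO4 replicate 1, and 641 and 787 under the study's threshold. Library size only moved the median of all genes to -0.065.

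With the replicate block, 6 enzymes rose and 1 fell, as without it, and 1846 and 1580 genes rose and fell in all. In the other lists the block moved the lower count of the supply genes from 0 to 1, the higher count of the elongation cycle from 3 to 4 and the lower count of the regulators from 2 to 3. The methods give 2 pairs from 2 independent experiments, but no source used here ties the replicate numbers to them, so the block is given here alone. Deviations of same-numbered libraries correlated at 0.0293 across genes, which are not independent, and at 0.22 over 8521 genes of at least 10 CPM.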

Other observations

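Fatty acid synthesis in mitochondria is a separate pathway that makes the precursor of lipoic acid, and its tested genes were not called in either direction. Over all genes tested, 10.9% were higher and 9.17% lower, and a list of 8 genes is too short to lie clearly below that. Of 8 genes tested, 0 passed an adjusted p under 0.05 in edgeR, DESeq2 or limma-voom, and 1 (Ndufab1) had an unadjusted p under 0.05 in edgeR. The median log2 fold change was 0.07. Mcat was at 19.3 and 17.1 CPM in the Mock libraries and at 20.7 and 17.5 CPM in FeSO4, and Oxsm was at 12.7 and 14 CPM against 12.7 and 14.2 CPM, so both overlapped between the groups. Ndufab1, the mitochondrial acyl carrier protein, did not overlap, at 35.3 CPM in both Mock libraries and 40.9 and 41.1 CPM in FeSO4 (log2 fold change 0.22, adjusted p = 0.0931).

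Genes that build glycerolipids from acyl-CoA had a median log2 fold change of 0.02, with 2 of 11 tested higher and 1 lower, beside 10.9% and 9.17% of all genes tested. With library size only, 1 was higher and 2 were lower, and under the study's threshold 1 was higher and 0 lower. Agpat4 rose by 0.87 and Lpin1 by 0.31 on the log2 scale, and Agpat3 fell by 0.19. The call of Agpat3 was lost without any 1 of the 4 libraries (adjusted p = 0.0689 without Mock replicate 1, 0.0976 without Mock replicate 2, 0.115 without FeSO4 replicate 1 and 0.298 without FeSO4 replicate 2). That of Lpin1 was lost without Mock replicate 1 (0.0989), Mock replicate 2 (0.0506) or FeSO4 replicate 2 (0.342), which left 1 higher gene. The list's summed level was 611 and 615 CPM in the Mock libraries and 602 and 598 CPM in FeSO4. Dgat2, which makes triglyceride, was at 17.9 and 17.4 CPM in the Mock libraries and 13.6 and 15.1 CPM in FeSO4 and was not called (adjusted p = 0.1). Mcat, Oxsm, Ndufab1 and Dgat2 were named after their values were seen.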
